A study of Mus musculus with 46 samples.

Results

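The comparison set the libraries of both early stress models, pooled with equal weight, against those of control-reared pups, and asked which genes changed in one direction in both models. The members were all 31 libraries labelled limited bedding (LB, 16 pups, 9 female and 7 male) or unpredictable postnatal stress (UPS, 15 pups, 7 female and 8 male), out of 46 in the series. The reference was the 15 libraries of control (CTL) pups, 9 female and 6 male. All pups were Balb/cByj mice reared in the stated condition and anaesthetised with chloral hydrate at postnatal day 17 (P17). Each library held RNA of the left hippocampus of a single pup. From birth LB litters had a reduced amount of bedding and no nestlet, CTL litters had more bedding and a nestlet, and the UPS procedure is given in an earlier publication that was not used here. The title and description of UPS female 1 name UPS while its stress label names LB, and it was counted with UPS. Litters are not given for single pups, so the p-values treat any littermates as independent.

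The third postnatal week is a period of rapid change in the rodent hippocampus. Oligodendrocyte progenitors leave the cell cycle, pass through a short newly formed stage and then make myelin, the lipid-rich membrane that insulates axons. Over the same weeks newborn granule neurons of the dentate gyrus extend axons and dendrites, and interneurons that express parvalbumin acquire fast potassium channels. Genes for myelin, axon growth and neuronal maturation therefore change steeply with age in the unstressed hippocampus.

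Levels are given in TPM, a gene's length-corrected share of all transcripts in a library scaled to a fixed total. Tests were run with limma on log2(TPM + 1), with sex as a covariate, for 13244 genes whose mean reached 3 TPM in LB, UPS or CTL. A difference is the fitted stress mean minus the fitted CTL mean of log2(TPM + 1), adjusted for sex, so changes of low genes are understated. LB and UPS are weighted equally unless one of them is named. A gene was called at a Benjamini-Hochberg adjusted p under 0.05 across all tested genes. A direction counts as seen in a pup by comparison with the CTL mean of the pup's sex. Neurod6 and Prox1, which mark CA pyramidal and dentate granule neurons, were at or above 242 TPM and 41.8 TPM in every library. UPS female 2 stood apart from the other 45 libraries on the second principal component, which carried 10.1% of the variance. The first component, with 17.7%, separated the sexes, with 2 exceptions. Both females numbered 9, 1 LB and 1 CTL pup, lay among the males, although Xist and Ddx3y fitted their female label. The column headers of both also give an earlier name, which lacks the suffix that marks females. The libraries detected 21151 to 24708 genes above 0 TPM, with 9.52% to 14.2% of TPM on mitochondrial genes.

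Stress-reared pups differed from CTL pups in 1666 genes, 905 higher and 761 lower (12.6%, 6.83% and 5.75% of the genes tested). Of these, 1665 had the same sign in LB and in UPS, and this set of 905 higher and 760 lower genes is the shared response (12.6% of the genes tested, 6.83% and 5.74%). The remaining gene, named after its values were seen, was Insig1, an inhibitor of sterol regulatory element processing, with differences of 0.025 in LB and -0.26 in UPS. The changes were small. The median absolute difference in the shared response was 0.17, and 94.2% of its genes lay under 0.4. Of the 96 larger changes, 73 were decreases and 23 were increases. Across all tested genes the median difference was 0.0018, and 74.1% of genes had one sign in LB and UPS, which share their CTL pups. Called genes are favoured in this comparison, because they were picked on the mean of both models. One sign in both also does not require a clear change in each. The last gene inside the threshold was Fbxo7, with a difference of -0.29 and an adjusted p of 0.04995 in limma, and the first outside was Zfp9, with 0.096 and 0.0501.

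**Figure D1:**
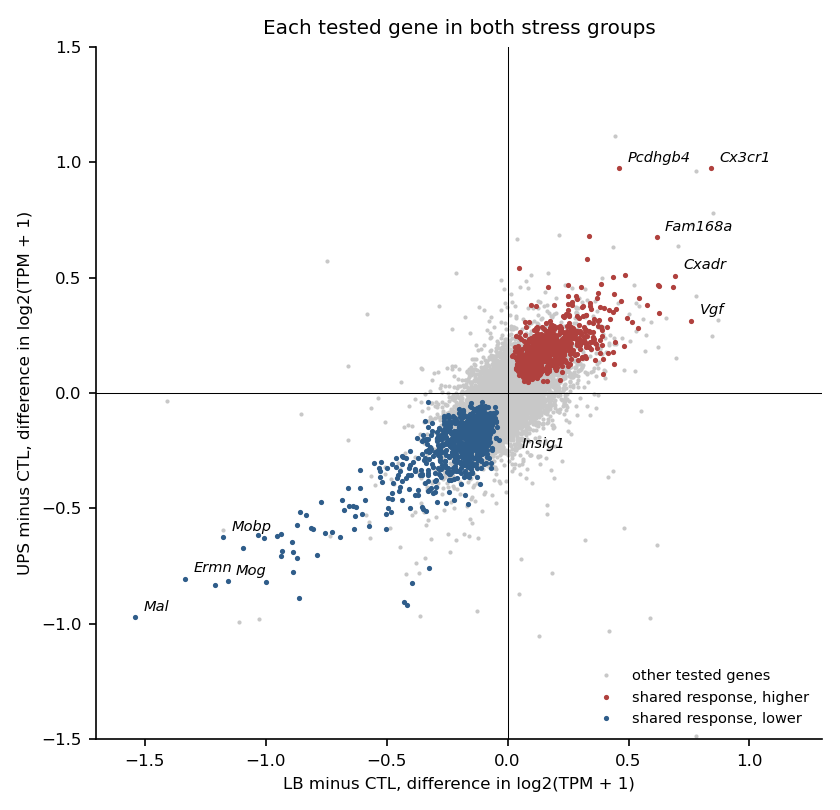
Difference from CTL in log2(TPM + 1) for LB (horizontal axis) and UPS (vertical axis), 1 point per tested gene, with the 905 higher genes of the shared response in red, its 760 lower genes in blue and other genes in grey. Among genes of the shared response Mal lies lowest on both axes. Insig1, which is not in the shared response, lies near 0 in LB and below it in UPS. Another 3 genes outside the shared response fall beyond the axes.

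A stricter set of genes passed the test in each model on its own. LB against CTL gave 749 calls (5.66% of the genes tested) and UPS against CTL gave 1715 (12.9%). With the same sign, 419 genes were called in both (3.16%), 199 higher (1.5%) and 220 lower (1.66%), and no gene was called in both with opposite signs. Within the shared response, 247 genes were called in LB and not in UPS, 803 in UPS and not in LB, and 196 in neither alone. These counts are not a test of whether the models differ. Those for LB and UPS also came closer once each library's GC trend was removed, described further on. A direct test between LB and UPS called 23 genes (0.174%). At an unadjusted p under 0.05 it had 1995 of 13244 genes, where a share of 0.05 is expected if no gene differs. Of the 23, 5 belong to the shared response. Leaving out UPS female 2 raised the shared response to 2226 genes, 1650 of which were among the 1665, and raised the genes called in each model to 683 and those for LB to 1229.

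The deepest decreases fell on genes of mature oligodendrocytes (OLs) and myelin. Of 36 tested genes of this list, 30 fell in the shared response, 22 of them in each model on its own, and none rose, against 5.74% of all tested genes lower. Their median difference was -0.68, against 0.0018 for all genes, with -0.81 in LB and -0.55 in UPS. Of the 13 genes of the shared response that fell by more than 0.8, 10 were on this list. The 6 list members that did not pass included Gpr37, Evi2a, Plekhb1 and Ndrg1, at differences of -0.15, -0.33, -0.20 and -0.14. Summed over the list, the level ran from 1338 to 3769 TPM in LB pups (median 2296), from 1757 to 4411 TPM in UPS pups (median 2980) and from 2204 to 5400 TPM in CTL pups (median 3738), so the groups overlapped. In these whole-tissue samples fewer mature OLs and less myelin RNA per OL cannot be told apart.

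Among proteins of the myelin membrane, Mal, a proteolipid of compact myelin (chr2:127633226-127656695 in GRCm38), showed the largest decrease of the shared response. It had a median of 32.8 TPM in LB pups (range 7.91 to 113), 73.05 TPM in UPS pups (13.7 to 126) and 114 TPM in CTL pups (29.9 to 193). Its difference was -1.26 (standard error 0.28, limma adjusted p = 0.0028), and it was below the CTL mean in 28 of 31 stress pups. Mog, the myelin oligodendrocyte glycoprotein on the outermost myelin layer (chr17:37010743-37023398), lay between 10.1 and 80 TPM in the LB pups (median 32.4), between 16.2 and 90.9 TPM in the UPS pups (median 51.9) and between 32.1 and 112 TPM in the CTL pups (median 76.4). The difference for Mog was -0.99 (standard error 0.22, limma adjusted p = 0.0023), and 14 of the 31 stress pups were below the lowest CTL pup. Mobp, a basic protein of compact myelin, had 51.7 to 559 TPM in LB pups (median 236), against 138 to 651 TPM in UPS pups (median 435) and 233 to 923 TPM in CTL pups (median 530.4), a difference of -0.90 (standard error 0.23, limma adjusted p = 0.0069). In UPS alone Mobp did not pass, with -0.62 and a limma adjusted p of 0.11. Opalin and Ermn, a sialylglycoprotein and a cytoskeletal protein of OLs, fell by 0.88 and 1.07, and they also passed in LB but not in UPS alone (limma adjusted p = 0.064 and 0.051).

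The structural genes that are abundant in myelin moved the same way with smaller differences. They were named after their values were seen. Mbp, the main cytoplasmic protein of compact myelin, averaged 485 ± 159.7 TPM in LB pups (SD, n = 16), 597 ± 196 TPM in UPS pups (n = 15) and 841 ± 215 TPM in CTL pups (n = 15). Its difference was -0.68 (standard error 0.15, limma adjusted p = 0.0018), with a decrease in 29 of 31 stress pups. Cldn11, which forms the tight junctions of the myelin sheath, averaged 133 ± 55.9 TPM in LB pups (SD, n = 16), 163 ± 63.4 TPM in UPS pups (n = 15) and 243 ± 60.9 TPM in CTL pups (n = 15). Mag, the adhesion glycoprotein of the innermost myelin layer, had a difference of -0.77, and Cnp, the cyclic nucleotide phosphodiesterase of non-compact myelin, had -0.51. Both passed in limma (adjusted p = 0.0049 and 0.0023). No gene of this list passed the direct test between LB and UPS (limma adjusted p of 0.308 or more), although 31 of the 36 had the lower value in LB.

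Gap junction, lipid and regulatory genes of OLs fell as well. Gjb1, the OL connexin 32, had a median of 2.46 TPM in LB pups (range 0.714 to 5.39), 3.11 TPM in UPS pups (0.508 to 6.96) and 6.43 TPM in CTL pups (1.44 to 10.02). It fell by 0.91 and passed in both models. Fa2h and Ugt8a, which make the hydroxylated galactolipids of myelin, had differences of -0.82 and -0.69 (limma adjusted p = 0.0015 and 0.0063). Nkx6-2, a homeobox factor of maturing OLs (chr7:139579376-139582797), lay between 0.637 and 6.70 TPM in the LB pups (median 2.89), between 1.22 and 9.60 TPM in the UPS pups (median 3.89) and between 3.42 and 11.9 TPM in the CTL pups (median 6.75). Its difference was -1.02 (standard error 0.18, limma adjusted p = 0.00038). Myrf, the factor that switches on myelin genes, fell by 0.37, in 30 of 31 stress pups. Ppp1r14a, an inhibitor of myosin phosphatase, had the smallest p-value of the list, with a difference of -0.79 (standard error 0.14, limma adjusted p = 0.00037). Tmem88b, a membrane protein of myelinating OLs, fell by 0.81.

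Among genes outside the lists, named after their values were seen, Erbb3, a neuregulin receptor, Lpar1, a receptor for lysophosphatidic acid, and S1pr5, a sphingosine phosphate receptor of OLs, had differences of -0.62, -0.54 and -0.56. S1pr5 had 3.09 to 11.5 TPM in LB pups (median 6.20), against 1.80 to 12.2 TPM in UPS pups (median 7.48) and 7.18 to 13.6 TPM in CTL pups (median 10.2), and 18 of the 31 stress pups lay below every CTL pup.

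**Figure D2:**
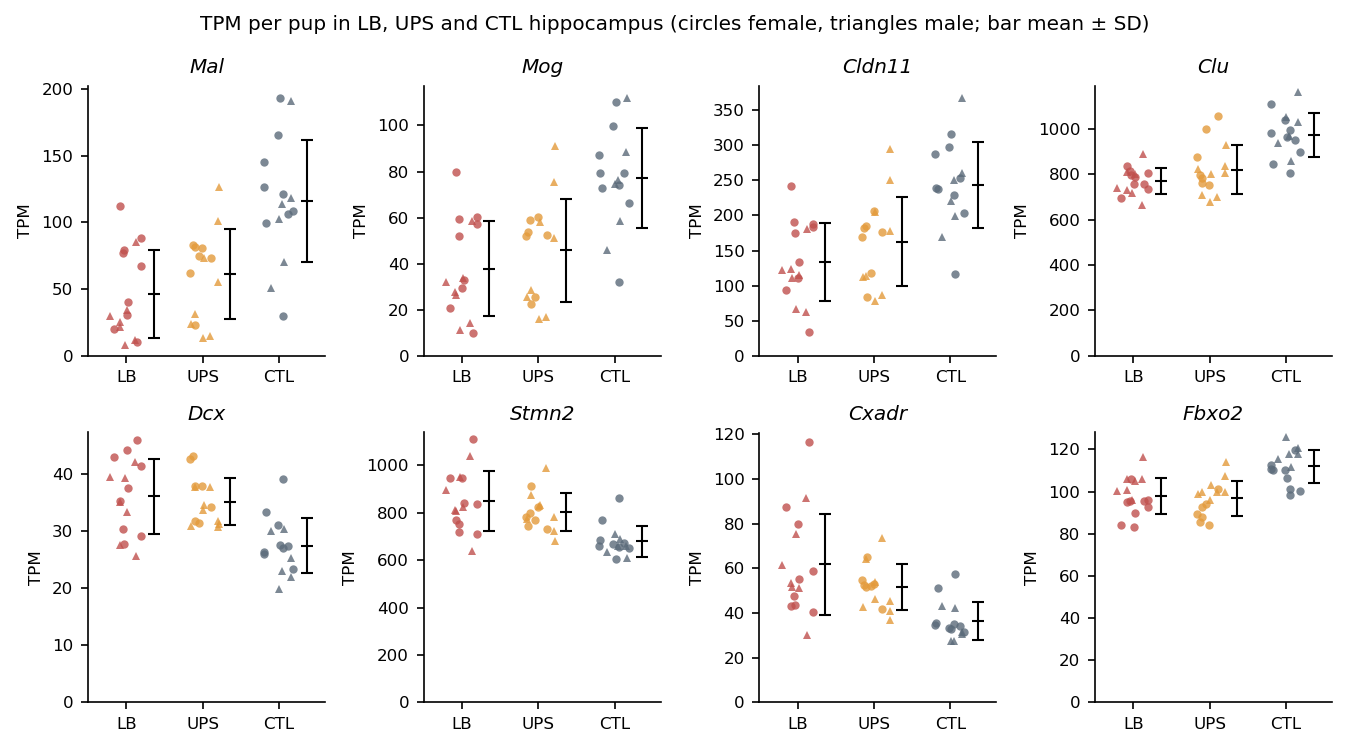
TPM of 8 genes in each pup, in LB, UPS and CTL, left to right in each panel, with circles for females, triangles for males and a bar for the mean ± SD. Mal, Mog, Cldn11, Clu and Fbxo2 sit lower in stress pups and Dcx, Stmn2 and Cxadr higher, and in every panel the groups overlap.

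Genes of earlier stages of the lineage changed in both directions. Of 17 tested genes of committed and newly formed OLs, 3 fell and 2 rose (29.4% in the shared response, against 12.6% of all tested genes), with a median difference of -0.11, and the fallers and risers were changed by 0.33 at most. Of 23 genes of OL progenitors (OPCs), 3 fell and 2 rose (21.7%), with a median of 0.014, and 1 rose without CTL male 1, 4 or 7. Pdgfra and Cspg4, which define OPCs, were at 0.035 and 0.039 and did not pass (limma adjusted p = 0.59 and 0.71). The 3 that fell, Olig1, Olig2 and Sox10, encode transcription factors that OPCs and OLs share, and the Olig2 call was lost without any 1 of 13 single libraries (limma adjusted p up to 0.069). Olig1 had a median of 151 TPM in LB pups (range 106 to 194), 149.5 TPM in UPS pups (78.9 to 221) and 177 TPM in CTL pups (135 to 249.99), a difference of -0.31 (standard error 0.06, limma adjusted p = 0.00084). Sox10 had a difference of -0.22 (standard error 0.056, limma adjusted p = 0.0076). Ptprz1, 1 of the 2 OPC genes that rose, lay between 0.17 and 0.22 over the 46 fits without 1 library. It kept its call in each of them (limma adjusted p up to 0.047). Rras2, a small GTPase, rose by 0.24 (limma adjusted p = 0.0027), farthest against the median of the newly formed stage. Without single libraries in turn, the shared response held 29 to 31 of the myelin genes, 0 to 3 falling genes of the newly formed stage, with 0 reached without CTL male 3, and 2 to 3 of the OPC stage.

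The promoters of 3 falling genes of this lineage and of Dcx and Nts, which rose, are shown to give the sequence context of members with large changes in either direction. They run from 250 bases before to 50 bases after the RefSeq start, 5′ to 3′ on the gene's strand (GRCm38.p6). Capitals mark matches on either strand to 8 motifs of at least 6 letters, the cyclic AMP response element TGACGTCA, the SOX motif ACAAAG, the E-box CAGCTG, its CACGTG form, its CATATG form and its CAGATG form, the GC box GGGCGG and the TATA box TATAAA. None of the 8 is contained in another. The core TGACG, contained in the first, and the SOX core ACAAT were also searched and are not marked. Mal lies at chr2:127656646-127656945, Mog at chr17:37023349-37023648, Nkx6-2 at chr7:139582748-139583047, Dcx, which has 2 starts in the table and is shown for the upstream one, at chrX:143933170-143933469, and Nts at chr10:102490369-102490668, all on the minus strand.
Mal: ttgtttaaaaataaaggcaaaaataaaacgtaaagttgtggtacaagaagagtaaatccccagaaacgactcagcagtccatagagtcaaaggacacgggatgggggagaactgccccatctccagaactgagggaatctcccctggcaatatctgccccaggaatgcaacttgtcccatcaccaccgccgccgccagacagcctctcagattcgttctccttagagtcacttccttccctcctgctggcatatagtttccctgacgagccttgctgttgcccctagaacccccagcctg
Mog: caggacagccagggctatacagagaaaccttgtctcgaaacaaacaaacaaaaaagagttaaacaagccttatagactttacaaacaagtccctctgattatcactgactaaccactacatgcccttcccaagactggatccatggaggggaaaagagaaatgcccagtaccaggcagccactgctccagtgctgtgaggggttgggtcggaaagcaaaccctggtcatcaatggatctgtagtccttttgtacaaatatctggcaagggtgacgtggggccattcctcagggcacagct
Nkx6-2: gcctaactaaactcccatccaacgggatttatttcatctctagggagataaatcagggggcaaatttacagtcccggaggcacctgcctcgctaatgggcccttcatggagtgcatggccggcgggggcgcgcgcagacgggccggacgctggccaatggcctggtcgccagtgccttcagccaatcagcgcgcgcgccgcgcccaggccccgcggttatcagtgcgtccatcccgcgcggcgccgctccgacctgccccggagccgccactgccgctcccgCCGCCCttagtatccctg
Dcx: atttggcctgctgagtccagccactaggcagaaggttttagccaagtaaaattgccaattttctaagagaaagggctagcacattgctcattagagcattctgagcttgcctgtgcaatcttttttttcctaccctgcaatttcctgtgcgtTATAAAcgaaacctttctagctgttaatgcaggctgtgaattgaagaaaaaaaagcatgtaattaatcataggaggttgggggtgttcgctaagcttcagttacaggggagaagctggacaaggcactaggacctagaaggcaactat
Nts: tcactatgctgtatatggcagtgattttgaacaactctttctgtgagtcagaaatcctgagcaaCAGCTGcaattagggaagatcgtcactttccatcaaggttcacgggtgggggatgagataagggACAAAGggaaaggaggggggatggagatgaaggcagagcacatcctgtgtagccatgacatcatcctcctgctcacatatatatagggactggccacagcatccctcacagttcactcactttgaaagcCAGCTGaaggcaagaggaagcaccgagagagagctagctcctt
The windows of the falling genes Mal and Mog held none of the 8 motifs, Nkx6-2 held 1 GC box, Dcx 1 TATA box, and Nts 1 SOX motif and 2 CAGCTG boxes. Over all 27025 genes with a promoter in the table, 38.2% held the GC box, 15.7% the TATA box, 21% the SOX motif ACAAAG and 18.3% CAGCTG. Over the 9878 tested genes among them the shares were 70.5%, 8.41%, 16.1% and 18.1%, so none of these matches is particular to the genes shown. Shares were not compared between gene sets, because only 75% of the falling members had a promoter in the table.

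Astrocyte genes fell in part. Of 26 tested genes, 6 were lower in the shared response, 5 of them in each model, and none was higher (23.1% of the list, against 5.74% of all tested genes lower), with a median difference of -0.07. Without UPS female 2, 7 were lower and 2 higher, in a fit that called 990 of 13239 tested genes lower and 1237 higher. Clu, a secreted chaperone that astrocytes make in large amounts, lay between 664 and 889 TPM in the LB pups (median 771), between 675 and 1057 TPM in the UPS pups (median 799) and between 804 and 1163 TPM in the CTL pups (median 969). Its difference was -0.29 (standard error 0.046, limma adjusted p = 0.00013), and 20 of the 31 stress pups lay below the lowest CTL pup. Aldoc, a glycolytic enzyme of astrocytes, had a difference of -0.18 (standard error 0.035, limma adjusted p = 0.00093), and Ndrg2, a cytoplasmic astrocyte protein, -0.18. Ntsr2, a neurotensin receptor, and S100b, a calcium-binding protein that OLs also express, were at -0.26 and -0.28. Gfap, Aqp4, Aldh1l1 and Slc1a3, which define astrocytes, were at 0.15, 0.16, 0.015 and 0.035, and none passed (limma adjusted p = 0.17, 0.081, 0.86 and 0.53). Summed over the list the level ran from 8928 to 10315 TPM in LB, 8998 to 10653 TPM in UPS and 9512 to 11090 TPM in CTL pups.

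In the lists of immature neurons and of axon growth some genes rose and none fell. Of 16 tested genes of immature neurons, 8 were higher in the shared response and none lower, against 6.83% of all tested genes higher, with a median difference of 0.19. Dcx, a microtubule protein of migrating and newborn neurons (chrX:143855842-143933311), had a median of 36.5 TPM in LB pups (range 25.7 to 46.1), 34.3 TPM in UPS pups (30.7 to 43.2) and 27.1 TPM in CTL pups (19.98 to 39.3). Its difference was 0.38 (standard error 0.067, limma adjusted p = 0.00036), an increase in 30 of 31 stress pups, with 0.38 in LB and 0.37 in UPS. Sox11 and Sox4, transcription factors of newborn neurons, rose by 0.27 and 0.24 (limma adjusted p = 0.0029 and 0.0031). Cd24a, a surface glycoprotein of neuroblasts, lay between 41.4 and 107 TPM in the LB pups (median 64.7), between 45.7 and 75.2 TPM in the UPS pups (median 59.4) and between 40.6 and 68.3 TPM in the CTL pups (median 47.7), a difference of 0.34. The other risers were Tubb2b and Tubb2a, tubulins of neurons, Neurod1, a proneural factor, and Draxin, an axon guidance protein, at 0.27, 0.16, 0.21 and 0.27. The calls for Tubb2a and Draxin were lost without 23 and 3 of the 46 single libraries (limma adjusted p up to 0.074 and 0.068). Bhlhe22, Prox1, Neurod2, Mdk and Zeb2, also on the list, lay between 0.0073 and 0.09 and did not pass.

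Of 27 genes of axon growth and neurofilaments, 11 rose and none fell (40.7%, against 6.83% of all tested genes higher), with a median of 0.12. Stmn2, a microtubule destabilizer of growth cones, had 637 to 1113 TPM in LB pups (median 830.5), against 680 to 990.2 TPM in UPS pups (median 783) and 607 to 862 TPM in CTL pups (median 659). The difference was 0.28 (standard error 0.051, limma adjusted p = 0.00044), in 30 of 31 stress pups. Dpysl3, a collapsin response mediator, had a median of 169 TPM in LB pups (range 96.96 to 328), 156 TPM in UPS pups (117 to 217) and 107 TPM in CTL pups (97.8 to 156), and 18 of the 31 stress pups exceeded every CTL pup. Its difference was 0.48 (standard error 0.11, limma adjusted p = 0.0026). Gap43 and Basp1, membrane proteins of the growth cone, rose by 0.29 and 0.15, and Map1b, a microtubule protein of growing axons, by 0.23 (limma adjusted p = 0.0059, 0.0025 and 0.0012). The neurofilament genes Nefl, Nefm and Nefh, which mark mature axons, were at 0.067, 0.11 and -0.0069 and did not pass. Leaving out single libraries gave 6 to 10 risers among immature neuron genes and 8 to 14 among axon growth genes.

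**Figure D3:**
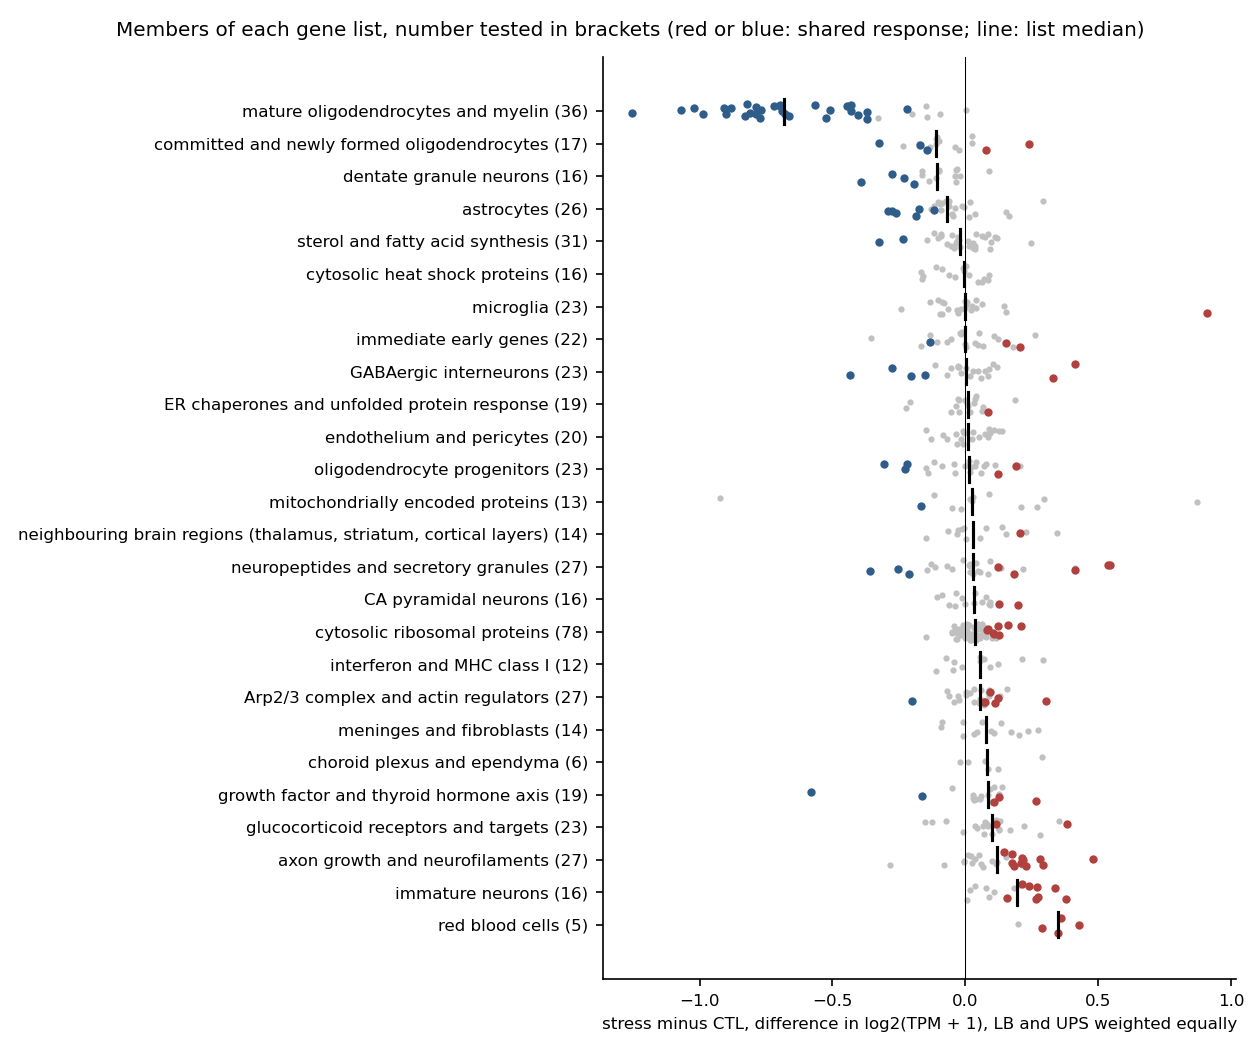
Difference between stress and CTL pups for the members of 26 gene lists, ordered by the list median (black line), with members of the shared response in red (higher) or blue (lower) and the others in grey. The myelin list stands at -0.68, immature neurons at 0.19 and red blood cells at 0.35, and the other medians lie within 0.12 of 0.

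Genes that characterise dentate granule neurons fell in part. Of 16 tested, 4 were lower and none higher (25% of the list, against 5.74% of all tested genes lower), with a median of -0.11, and all 16 had a lower value in LB than in UPS, though none passed the direct test (limma adjusted p of 0.164 or more). C1ql2, a synaptic organizer that granule neurons release at mossy fibre synapses, had a median of 21.5 TPM in LB pups (range 14.9 to 33.1), 24.8 TPM in UPS pups (14.2 to 31.8) and 28.8 TPM in CTL pups (23.1 to 37.2). Its difference was -0.39 (standard error 0.07, limma adjusted p = 0.00037), and 17 of the 31 stress pups lay below every CTL pup. C1ql3, Plekha2 and Dock10 fell by 0.19, 0.28 and 0.23. Prox1, which defines these cells, and Calb1, calbindin of mature granule neurons, were at 0.09 and -0.034 (limma adjusted p = 0.38 and 0.69). Of 16 CA pyramidal genes, Nectin3, an adhesion molecule, and Neurod6, a bHLH factor, rose by 0.20 and 0.13 and none fell (12.5%, against 6.83% of all tested genes higher). The Neurod6 call was lost with the GC trend removed (limma adjusted p = 0.11).

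Of 23 tested interneuron genes, 4 fell and 2 rose (26.1% in the shared response, against 12.6% of all tested genes), with a median of 0.0034. Pvalb, the calcium buffer of fast-spiking interneurons, lay between 17.2 and 65.3 TPM in the LB pups (median 42.8), between 36.2 and 66.5 TPM in the UPS pups (median 50.4) and between 48.98 and 77.8 TPM in the CTL pups (median 65.3). Its difference was -0.43 (standard error 0.10, limma adjusted p = 0.0046), and 17 of the 31 stress pups lay below the lowest CTL pup. Kcnc1 and Kcnc2, subunits of the fast potassium channels of these cells, fell by 0.20 and 0.15, and Lamp5, a membrane protein of neurogliaform cells, fell by 0.28. The Kcnc2 call was lost without CTL female 3, 5 or 8 or CTL male 6 or 7, with differences of -0.14 and limma adjusted p up to 0.068. Reln, the signalling protein of Cajal-Retzius cells and some interneurons, had 38.5 to 92.8 TPM in LB pups (median 57.7), against 39.4 to 68.04 TPM in UPS pups (median 56.7) and 34.97 to 51.8 TPM in CTL pups (median 46.1), a difference of 0.33 (standard error 0.082, limma adjusted p = 0.0056). Gad1, Gad2 and Slc32a1, which all GABAergic neurons need, were at -0.054, 0.018 and -0.068, and none passed in limma (adjusted p = 0.53, 0.83 and 0.41).

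Among 27 genes of neuropeptides and their granules, 5 rose and 3 fell (29.6%, against 12.6% of all tested genes), and 3 rose without CTL male 7. Tac1, the precursor of substance P, had a median of 36.2 TPM in LB pups (range 24.6 to 43.2), 31.8 TPM in UPS pups (15.8 to 42.4) and 23.99 TPM in CTL pups (19.2 to 36.02). Its difference was 0.41 (standard error 0.085, limma adjusted p = 0.0014), and it passed in each model. Nts, the neurotensin precursor (chr10:102481756-102490486), lay between 13.9 and 40.9 TPM in the LB pups (median 24.3), between 14.8 and 32.1 TPM in the UPS pups (median 21.7) and between 6.61 and 32.9 TPM in the CTL pups (median 16.95), a difference of 0.55 (standard error 0.14, limma adjusted p = 0.0082). Vgf, a secreted granule protein induced by neuronal activity, had 82.8 to 309 TPM in LB pups (median 187), against 72.3 to 280.2 TPM in UPS pups (median 131) and 59.9 to 169 TPM in CTL pups (median 106). Its difference was 0.54 (standard error 0.15, limma adjusted p = 0.013), and it passed in LB (0.76, limma adjusted p = 0.0046) and not in UPS (0.31, limma adjusted p = 0.22), while the direct difference of 0.45 between the models did not pass either (limma adjusted p = 0.21). Pdyn, the dynorphin precursor, and Cck, cholecystokinin, fell by 0.36 and 0.21. The call for Cck was lost once each library's GC trend was removed, described further on (limma adjusted p = 0.0505).

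The most regular changes were small. Fbxo2, a ubiquitin ligase subunit of neurons that binds glycoproteins, had the smallest p-value. It lay between 83.3 and 116 TPM in the LB pups (median 96.1), between 83.9 and 114 TPM in the UPS pups (median 98.7) and between 98.5 and 126 TPM in the CTL pups (median 111), a difference of -0.21 (standard error 0.028, limma adjusted p = 1.8e-05), and was below the CTL mean in 31 of 31 stress pups. Ncs1, a neuronal calcium sensor, averaged 189 ± 8.56 TPM in LB pups (SD, n = 16), 186 ± 14.1 TPM in UPS pups (n = 15) and 208 ± 10.3 TPM in CTL pups (n = 15), with a difference of -0.16 (standard error 0.022, limma adjusted p = 2e-05) seen in 31 of 31 pups. Lzts3, a postsynaptic scaffold protein, Gpr37l1, a receptor of astrocytes, and Cdc42ep1, a Cdc42 effector, complete the 5 smallest p-values among decreases, at -0.30, -0.29 and -0.43. Among increases these were Nyap2, a neuronal adaptor of PI3 kinase, Cttnbp2nl, a cortactin-binding protein, Plppr5, a membrane protein that promotes neurite growth, Gng2, a G protein subunit, and Ccdc50, a ubiquitin-binding protein. Nyap2 had a median of 23.3 TPM in LB pups (range 17.5 to 29.9), 25.5 TPM in UPS pups (20.3 to 40.2) and 20.4 TPM in CTL pups (15.2 to 24.4), a difference of 0.33 (standard error 0.048, limma adjusted p = 6.3e-05). Gng2, Plppr5 and Ccdc50 rose by 0.21, 0.24 and 0.19, each in 31 of 31 stress pups. Such counts are favoured for genes picked by their p-value in the same pups. Kif5a, a kinesin of axonal transport, Camk4, a nuclear calcium-dependent kinase, and Tet1, which oxidises methylated cytosine, were named after their values were seen, at -0.20, 0.37 and 0.34, and each kept its direction in at least 30 of 31 stress pups.

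Several of the largest increases belong to none of these lists. Cxadr, an adhesion molecule at cell junctions that was first known as a virus receptor (chr16:78301489-78359774), had 30.3 to 116 TPM in LB pups (median 54.3), against 36.8 to 73.8 TPM in UPS pups (median 52.1) and 27.6 to 57.4 TPM in CTL pups (median 34.1). Its difference was 0.60 (standard error 0.11, limma adjusted p = 0.00056), with 0.69 in LB and 0.51 in UPS. Met, the receptor for hepatocyte growth factor, had a median of 7.33 TPM in LB pups (range 4.18 to 11.4), 7.89 TPM in UPS pups (3.91 to 11.01) and 4.32 TPM in CTL pups (3.38 to 10.7), a difference of 0.50 (standard error 0.12, limma adjusted p = 0.0039). Emp1, an epithelial membrane protein, rose by 0.47 in 31 of 31 stress pups. Tcfl5, a bHLH factor best known from testis, Selenov, a selenoprotein, and Arl5c, a small GTPase, rose by 0.57, 0.55 and 0.48 from CTL means of 1.43, 2.37 and 2.62 TPM, so the added 1 TPM weighs on their values. Selenov lay between 1.89 and 6.95 TPM in the LB pups (median 4.51), between 1.21 and 5.98 TPM in the UPS pups (median 3.74) and between 1.37 and 3.70 TPM in the CTL pups (median 2.43), and 19 of the 31 stress pups exceeded the highest CTL pup.

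In the growth factor and thyroid hormone list, 3 of 19 genes rose and 2 fell (26.3%, against 12.6% of all tested genes), and 1 rose without CTL male 4, CTL female 6 or CTL male 7. Igf1, a growth factor that promotes OL development and myelination, had a median of 12.5 TPM in LB pups (range 8.94 to 15.5), 12.1 TPM in UPS pups (8.41 to 15.1) and 10.2 TPM in CTL pups (6.91 to 12.8), a difference of 0.26 (standard error 0.064, limma adjusted p = 0.0047). Igfbp6, an inhibitory binding protein that prefers Igf2, had 4.99 to 12.9 TPM in LB pups (median 8.37), against 3.85 to 14.1 TPM in UPS pups (median 9.67) and 8.70 to 21.95 TPM in CTL pups (median 13.4), and 14 of the 31 stress pups lay below every CTL pup. Its difference was -0.58 (standard error 0.12, limma adjusted p = 0.0015). Of 23 glucocorticoid receptors and targets, 2 rose and none fell (8.70%, against 6.83% of all tested genes higher), with a median of 0.10. Without single libraries 1 to 5 rose, with 5 rising and 1 falling without UPS female 2 (median 0.058). That fit called 1237 of 13239 tested genes higher and 990 lower. Cdkn1a, a cell cycle inhibitor, had a difference of 0.38 (standard error 0.092, limma adjusted p = 0.0045). Klf9, a Krüppel-like factor, had 0.11 (standard error 0.038, limma adjusted p = 0.039), a call that was lost without any 1 of 10 single libraries (limma adjusted p up to 0.069) and with the GC trend removed (0.10). Fkbp5, the feedback regulator of the glucocorticoid receptor, was at 0.10 and did not pass (limma adjusted p = 0.28), and its highest value, 109 TPM, was in UPS female 2. Errfi1, an inhibitor of the EGF receptor named after its values were seen, did not pass in the pooled comparison but differed between LB and UPS by -0.23 (limma adjusted p = 0.018).

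In the sterol and fatty acid list, 2 of 31 genes fell in the shared response and none rose (6.45%, against 5.74% of all tested genes lower). Without UPS female 2, 4 fell and 6 rose, in a fit that called 990 of 13239 tested genes lower and 1237 higher. Srebf1, a master factor of lipid synthesis, was at -0.23 (limma adjusted p = 0.002). No synthesis enzyme of the list passed, with Hmgcs1 and Fasn at 0.085 and 0.091. Of 27 actin genes, 6 rose and 1 fell (25.9%, against 12.6% of all tested genes). Actr2 and Arpc3, both of the Arp2/3 complex that branches actin, rose by 0.12 and 0.094, and Arpc1b of the same complex fell by 0.20 (limma adjusted p = 0.049), a call lost without 31 of the 46 single libraries (limma adjusted p up to 0.12). Of 78 cytosolic ribosomal protein genes, 8 rose and none fell (10.3%, against 6.83% of all tested genes higher), with a median of 0.036. Without single libraries 3 to 9 rose, with 3 reached without CTL female 4, and quantile normalization gave 3 and removal of the GC trend 4. In addition 1 of 13 mitochondrially encoded genes fell (7.69%, against 5.74% of all tested genes lower), mt-Nd6 at -0.17. That call was lost without 1 of the 46 single libraries (limma adjusted p = 0.052). Of 22 immediate early genes, which neuronal activity induces, 3 were in the shared response (13.6%, against 12.6% of all tested genes). Nptx2 and Nr4a3 rose by 0.20 and 0.15 and Jun fell by 0.13, while Fos and Arc were at 0.26 and -0.35 (limma adjusted p = 0.1 and 0.15). Of 19 genes of ER chaperones and the unfolded protein response, 1 rose (5.26%, against 6.83% of all tested genes higher), Pdia3 by 0.085, a call lost without 27 of the 46 single libraries (limma adjusted p up to 0.099).

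Markers of other cells the dissection could hold moved as follows. All 4 globin genes tested rose, Hba-a1, Hba-a2, Hbb-bs and Hbb-bt, by 0.36, 0.43, 0.29 and 0.35, and the remaining red blood cell gene, Alas2, was at 0.20. These 4 were 80% of the list, against 6.83% of all tested genes higher. The summed level of the 5 ran from 278 to 615 TPM in LB, 272.5 to 823 TPM in UPS and 236 to 416 TPM in CTL pups. Reads of the near-identical globin copies may be split between them, so single copies are uncertain. Their calls were lost without 5, 1, 25 and 16 of the 46 single libraries, in the order named, with limma adjusted p up to 0.086. With no filter on low TPM no red blood cell gene passed, and without the sex term 1 did. The shared response held 12.6% of all tested genes. No gene passed in limma among 20 of endothelium and pericytes, 14 of meninges and fibroblasts and 6 of choroid plexus and ependyma. None passed among 12 of interferon and MHC class I and 16 of cytosolic heat shock proteins. In these lists 3, 3, 0, 1 and 3 genes, in the order named, had an unadjusted limma p under 0.05. Of 14 genes of neighbouring brain regions 1 passed (7.14%, against 6.83% of all tested genes higher), Adora2a at 0.20. That call was lost without 22 of the 46 single libraries (limma adjusted p up to 0.093). Among 23 microglial genes 1 passed (4.35%, against 6.83% of all tested genes higher), Cx3cr1, while Csf1r, P2ry12 and Tmem119 were at -0.0023, 0.15 and -0.08. Ttr, the defining transcript of choroid plexus, ranged from 0 to 2500.3 TPM in LB, 5.59 to 1360 TPM in UPS and 1.45 to 642 TPM in CTL pups. Without UPS female 2, 2 endothelial and 3 meningeal genes rose and 2 heat shock genes rose and 2 fell, and no choroid or interferon gene passed. That fit called 1237 of 13239 tested genes higher and 990 lower. Without LB male 5, 1 interferon gene rose, and without CTL male 5, 4 genes of neighbouring brain regions rose. The part of these cells in the shared response was not tested.

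Cx3cr1, the fractalkine receptor of microglia, had the largest increase of the shared response, 0.91 (standard error 0.29, limma adjusted p = 0.029), and its values were stepped rather than continuous. It had a median of 15.3 TPM in LB pups (range 5.66 to 54.9), 14.7 TPM in UPS pups (4.37 to 53.04) and 12.2 TPM in CTL pups (4.39 to 47.9), and its difference was 0.10 in males and 1.53 in females, which did not pass the interaction test (limma adjusted p = 1). A gene was called stepped where a gap of at least 0.4 on the log2 scale, covering at least 20% of the range, split its values with at least 3 libraries on each side. This held for 261 of the tested genes (1.97%) and for 7 genes of the shared response, which were Cx3cr1, Pcdhgb4, Fam168a, Oxct1, Ggnbp1, Bak1 and Fbxo7. Pcdhgb4, a protocadherin whose last exons are shared across its cluster, and Fam168a were at 0.72 and 0.65. For such genes the difference depends on how many pups lie on each step. The Cx3cr1 call was lost without CTL female 4, CTL female 5 or CTL male 6, with differences of 0.81, 0.82 and 0.87 and limma adjusted p of 0.056, 0.054 and 0.051. Without the stepped genes 1681 genes formed the shared response.

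**Figure D4:**
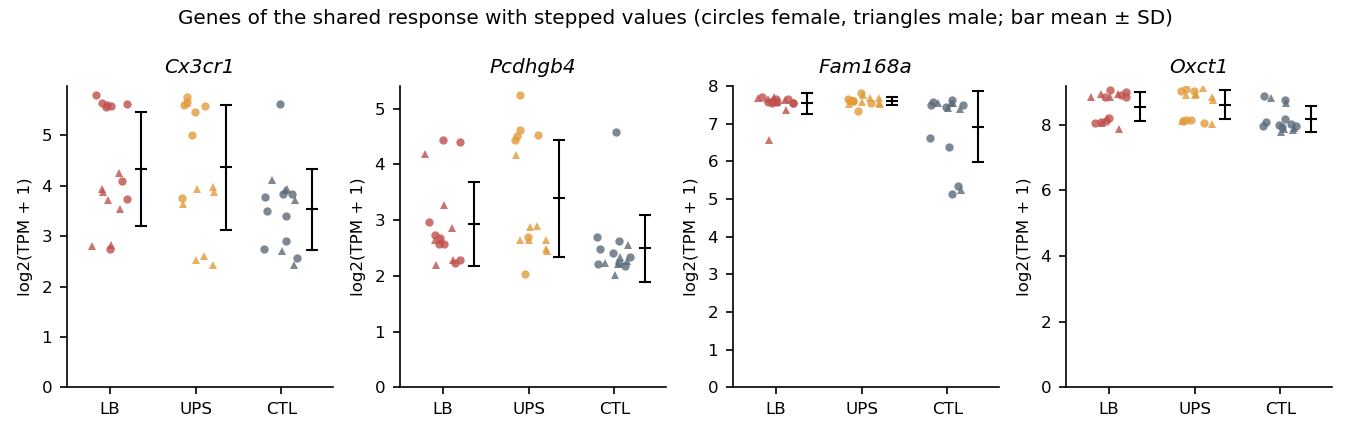
Log2(TPM + 1) of 4 genes of the shared response with stepped values in each pup of LB, UPS and CTL (circles female, triangles male, bar mean ± SD). The values of each gene fall into separate levels that hold different numbers of pups of each group, and for Cx3cr1 the upper level holds 1 CTL pup.

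The shared response was also unevenly spread over base composition. The median GC content of the longest transcript was 45.8% for genes that rose and 54.9% for genes that fell, against 49.7% for all tested genes, and the median transcript lengths were 4513, 2892 and 3424 bases. In the quintile of genes with the least GC, 11.6% rose and 1.55% fell. In the quintile with the most GC, 1.74% rose and 12.5% fell. Libraries differed in the slope of their expression against GC, and the slopes were set apart by sex. In males the median slope was 0.068 log2 units per 10 points of GC in UPS, 0.13 in LB and 0.149 in CTL. In females it was -0.143, -0.104 and -0.080 in that order, so it was lowest in UPS in each sex. Single slopes lay between 0.093 and 0.15 in LB males, between 0.020 and 0.12 in UPS males and between 0.094 and 0.18 in CTL males. In females, they lay between -0.12 and 0.11 in LB, between -0.18 and -0.062 in UPS and between -0.13 and 0.12 in CTL, where the only positive slopes were those of both pups numbered 9. In the other pups sex and this property of the libraries cannot be told apart. Counting both number 9 females with the males gave 1689 shared genes (1566 of them among the 1665), and leaving them out gave 1468 (1389). With the GC trend of each library removed, the shared response held 1577 genes, 820 higher and 757 lower, of which 1185 were among the original 1665 (71.2% of these and 75.1% of the 1577). LB against CTL then gave 970 calls and UPS against CTL 1220, where the main fit gave 749 and 1715. The lowest quintile then had 5.56% rising and 4.54% falling genes, and the highest quintile 6.39% and 6.84%. The myelin list then had 31 falling genes and a median of -0.68, immature neurons 8 rising genes and axon growth genes 13. The differences for Mal, Dcx and Fbxo2 were then -1.27, 0.34 and -0.15. Fbxo2 no longer had the smallest p-value, with a limma adjusted p of 0.0026 against 0.00029 for Gpr37l1.

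**Figure D5:**
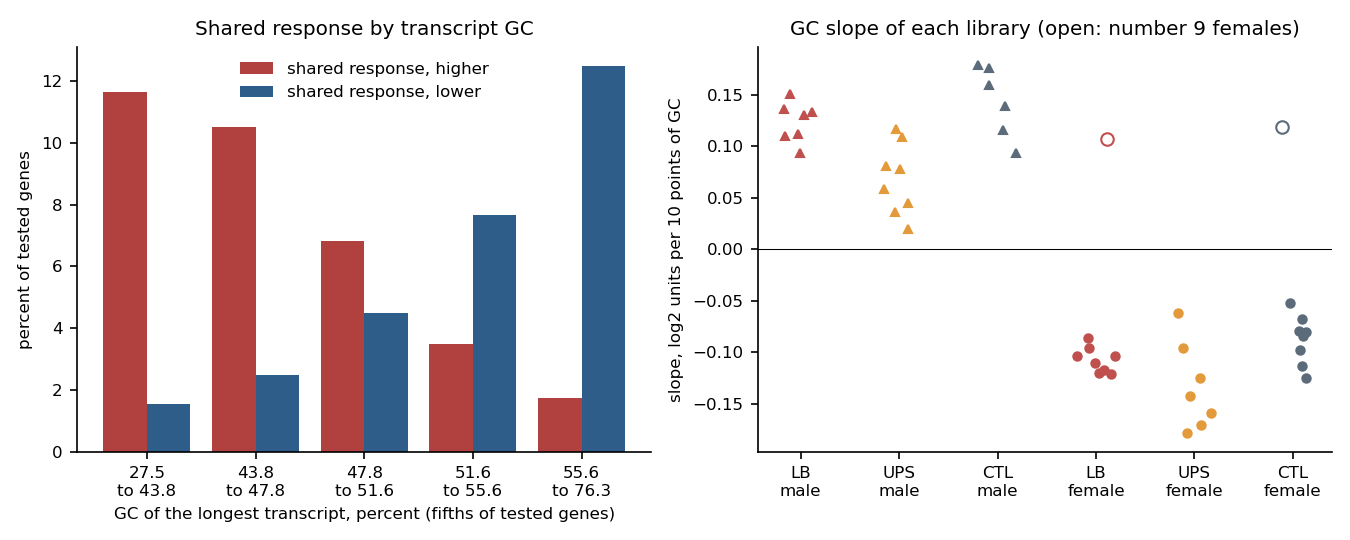
Left, the percentage of tested genes in the shared response that rose (red) or fell (blue), by quintile of transcript GC content. Right, the slope of each library's deviation in log2(TPM + 1) against GC, by rearing and sex. Rising genes go from 11.6% in the lowest to 1.74% in the highest quintile, and male libraries and both number 9 females lie above 0.

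No gene passed the test of an interaction between stress and sex in limma (341 at an unadjusted p under 0.05). In the shared response 1663 of 1665 genes had one sign in males and females, against 69.8% of all tested genes, a comparison that favours the shared genes because they were picked on the mean over both sexes. Within one sex few genes passed, 35 in males and 32 in females, with 15 stress and 6 CTL males and 16 stress and 9 CTL females. Without the sex term the shared response fell to 647 genes, all of them among the 1665.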

How the data were processed

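RNA of 46 left hippocampi was sequenced, 1 library per pup. The authors aligned reads to mm10 with HISAT2, computed TPM with StringTie and deposited TPM for 52636 genes. The sources used here name GENCODE annotation without its release, and no tool versions. Their own comparison tables (log2 fold changes, p-values, adjusted p-values) were not used. Since TPM holds no read depth, error was judged only from the spread over 15 or 16 pups a group. Cav2 was left out because 1 cell holds text.

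Genes whose mean reached 3 TPM in a rearing group (13244) were tested as log2(TPM + 1) in limma 3.58.1 (R 4.3.3) with 3 rearing means, sex and a variance trend, and the script was tested on simulated data. Pooled stress is the mean of LB and UPS. Adjustment was by Benjamini-Hochberg over all tested genes. Alternatives covered pseudocounts of 0.1 and 5, filters, 3 rescalings, sex handling, the label conflict, sample number as a block, variance options and each library left out. Those on GC content and stepped genes were added after the data were seen, as was the choice to name the values without UPS female 2. Members and the 26 gene lists were chosen with earlier results of these data known. The rule for naming took the 12 largest changes and 5 smallest p-values each way among shared genes with one sign in males and females. It also took 3 genes per list with the member farthest against its median, and genes differing between models, and not all are printed. Genes outside it were named after their values were seen. Coordinates and GC content are from GENCODE vM21 (GRCm38), where 99.85% of tested identifiers were found, and promoters are from RefSeq. Results for some genes are not reported here.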

Additional observations from a re-analysis of the deposited data

Results flagged for a closer look

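The direct test between the models called 23 genes in limma with different effects in LB and UPS, each a difference between groups by a test of that difference. Insig1, an inhibitor of sterol regulatory element processing, had a median of 48.4 TPM in LB pups (range 42.4 to 61.5), 40.5 TPM in UPS pups (36.3 to 43.6) and 48.4 TPM in CTL pups (43.4 to 55.2), and LB minus UPS was 0.29 (standard error 0.044, limma adjusted p = 0.00029). It was the gene of the pooled comparison with opposite signs, and its pooled call was lost without 6 single CTL libraries (male 3, female 5, female 6, male 6, female 7 or female 8, with differences of -0.11 to -0.12 and limma adjusted p up to 0.067). Id3, an inhibitor of bHLH factors, and Thrsp, a lipogenic protein, differed by 0.45 and -0.25, and Rin2, a Rab5 exchange factor, by -0.34 (limma adjusted p = 0.00062, 0.0035 and 0.00029). Id3 had 49.3 to 102 TPM in LB pups (median 62.96), against 37.7 to 74.5 TPM in UPS pups (median 49.2) and 47.4 to 84.6 TPM in CTL pups (median 65.8).

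Lrrc8c, Cyp2j9, Fnip2 and Prickle2 belong to the shared response and still differed between the models, by -0.21, -0.29, -0.18 and -0.14 (limma adjusted p = 0.0019, 0.018, 0.034 and 0.043). Lrrc8c, a subunit of volume-regulated anion channels, had a median of 17.3 TPM in LB pups (range 15.6 to 20.7), 19.5 TPM in UPS pups (16.6 to 25) and 16.5 TPM in CTL pups (14.7 to 18.1), with 0.075 in LB and 0.29 in UPS against CTL. Cyp2j9, a cytochrome P450, was the one of these 4 that changed more in LB, at -0.33 against -0.038 in UPS. The other such gene is 9330159F19Rik. The calls for Fnip2 and Prickle2 were lost without any 1 of 12 and 17 single libraries (limma adjusted p up to 0.079 and 0.0999).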

How the results depend on the processing

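None of 104 named genes of the shared response changed direction under any of the 23 alternatives or the 46 fits without 1 library, and 21 lost their call without at least 1 library. The lack of reversals was favoured in advance, because these genes were picked as called in the same data. Those named for the size of their change or their p-value also had to have one sign in males and females. With the GC trend of each library removed, 7 lost their call (Arpc1b, Cck, Ggnbp1, Klf9, Neurod6, Olig2 and Pdia3). In males alone 95 of the 104 lost it, in females alone 95, without the sex term 29 and without a filter on low TPM 24. The counts for pooled stress and the shared response moved by over 1.5 times under 4 settings. Without the sex term the pooled comparison called 647 genes (329 higher, 318 lower), with 647 shared, 140 called in each model, 437 for LB, 332 for UPS and 3 between LB and UPS. With library weights it called 2825 (1682 higher, 1143 lower), with 2821 shared, 968 in each model, 1656 for LB, 2740 for UPS and 184 between the models. Males alone gave 35 (16 higher, 19 lower), with 35 shared, 0 in each model, 0 for LB, 69 for UPS and 0 between them, and females alone 32 (18 higher, 14 lower), with 32 shared, 0, 0, 68 and 2. Without a filter on low TPM, 247 genes were called in each model and 484 for LB. Between LB and UPS, quantile normalization gave 49 genes and the replicate block 55.

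Leaving out 1 library gave 1271 to 2227 genes for pooled stress (636 to 1237 higher, 571 to 990 lower), 1270 to 2226 shared, 296 to 683 in each model, 529 to 1229 for LB, 1346 to 2174 for UPS, 11 to 59 between the models and 0 for the sex interaction. The count between the models fell to 14 without LB female 9 or UPS female 3 and to 11 without UPS female 7. It rose to 52 without LB female 8, 55 without UPS female 2 or UPS male 7, 47 and 39 without UPS female and male 5, 59 without UPS female 6 and 35 without UPS male 6.

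Sample numbers were not taken as pairs, since the labels give them no meaning and 21 of 102 same-numbered pairs had a correlation above 0.1 (median 0.038). As a hint from the data and not from the design, 14 of 46 libraries correlated best with their own number. With the replicate block 1703 genes were called for pooled stress (1703 shared), 441 in each model, 754 for LB and 1726 for UPS. Read depth behind TPM is unknown, litter could not be modelled, and a rescaling of TPM moved the median of all genes by less than 0.1.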
